A study of Mus musculus with 6 samples.

Results

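In the hearts of mice at postnatal day 1 (P1), 3841 open chromatin regions carried a peak in both Input and both Myc libraries and in neither PCM1 library. They were chosen by that rule from 169872 regions, which were made by merging the peak intervals of all 6 Omni-ATAC libraries, and so form 2.26% of all merged regions. Both Input and both Myc libraries had a peak in 60421 regions, called four-library regions here. Of these, 48861 were also present in both PCM1 libraries, 7719 (12.8%) in a single PCM1 library, and 3841 (6.36%) in neither. Presence and absence of peaks chose the members, so the counts by library describe the rule and were not tested. No test between groups was run. An exact one-sided permutation test of 4 libraries against 2 has a smallest p-value of 0.0667.

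All libraries were made from 50000 nuclei of whole P1 mouse hearts, isolated over a 2.2M sucrose cushion, with 2 biological replicates in each of 3 groups. Input is the nuclei of WT hearts as they leave the cushion, without immunoprecipitation. Myc is the nuclei captured with a Myc antibody by magnet-assisted nuclear immunoprecipitation (MAN-IP) from hearts with Nkx2-5 Cre/+ and the reporter allele R26RSun1-Myc-Egfp/+, in which cells of the Nkx2-5 lineage and their descendants carry the Myc tag on the nuclear envelope. PCM1 is the nuclei captured with a PCM1 antibody from hearts labelled WT. The driver limits the Myc group to cells with a history of Nkx2-5 expression, which in the heart include cardiomyocytes and part of the smooth muscle, endothelial and endocardial cells, and PCM1 marks the nuclei of cardiomyocytes, though not every one of them in the study's preparations. The study uses the 2.2M cushion to prepare cardiomyocyte nuclei and a lighter cushion where nuclei of mixed cell types are wanted, so few other nuclei are meant to enter any of the groups. Myc and PCM1 thus differ, by their labels, in genotype as well as in antibody. Over Sun1, the gene that the reporter is made from, the PCM1 libraries resembled Myc rather than Input. Summits in Sun1 coding exons numbered 0 of 6 and 0 of 3 Sun1 summits in the Input libraries, 4 of 9 and 4 of 7 in Myc, and 3 of 7 and 7 of 10 in PCM1, although Input and PCM1 are both labelled WT. What these peaks stem from was not tested.

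In ATAC-Seq a transposase cuts accessible DNA, and the cuts pile up over promoters, which are open in most cell types, and over enhancers, insulators and other distal elements, many of which open in a single lineage. A heart holds cardiomyocytes, endothelial and endocardial cells, smooth muscle cells and pericytes, fibroblasts, epicardial cells and blood cells, and a library averages over whichever of their nuclei pass the cushion and the capture. In any such mixture, fewer nuclei with an open site and a site that is less open in each nucleus cannot be told apart.

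Reference sequence is shown for the members on which the account below turns: the 4 members that ranked highest in their weakest library, and the leading member next to a cardiomyocyte, an endothelial, a smooth muscle and a bone morphogenetic protein (BMP) pathway gene. Each is the plus strand of the GRCm38 assembly (mm10 coordinates) over 200 bp around the mean summit of the Input and Myc libraries, named by the nearest protein-coding gene, and capitals mark matches to the short motifs searched.
Rnf144b region, chr13:47152445-47152644: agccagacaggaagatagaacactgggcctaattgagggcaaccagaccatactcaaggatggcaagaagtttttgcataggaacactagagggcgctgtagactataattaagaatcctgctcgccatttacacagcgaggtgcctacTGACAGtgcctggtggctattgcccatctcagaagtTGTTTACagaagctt
Lgmn region, chr12:102387319-102387518: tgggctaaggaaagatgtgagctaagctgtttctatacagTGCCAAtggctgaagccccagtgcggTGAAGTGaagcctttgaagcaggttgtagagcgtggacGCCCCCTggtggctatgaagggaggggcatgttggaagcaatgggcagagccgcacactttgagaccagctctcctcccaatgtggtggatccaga
Gsdme region, chr6:50294230-50294429: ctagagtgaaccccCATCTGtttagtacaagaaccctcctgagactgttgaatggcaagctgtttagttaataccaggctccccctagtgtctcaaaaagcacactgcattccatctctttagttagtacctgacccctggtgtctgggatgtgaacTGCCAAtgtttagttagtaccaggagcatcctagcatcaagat
Maml3 region, chr3:52104941-52105140: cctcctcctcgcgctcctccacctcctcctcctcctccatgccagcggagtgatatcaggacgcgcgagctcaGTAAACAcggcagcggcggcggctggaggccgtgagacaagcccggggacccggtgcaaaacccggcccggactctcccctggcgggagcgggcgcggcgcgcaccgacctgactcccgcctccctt
Nppa region, chr4:148008459-148008658: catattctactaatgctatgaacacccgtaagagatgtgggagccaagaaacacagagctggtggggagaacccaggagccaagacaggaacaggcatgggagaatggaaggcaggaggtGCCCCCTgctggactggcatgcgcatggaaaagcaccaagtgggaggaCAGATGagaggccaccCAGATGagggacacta
Cdh5 region, chr8:104121801-104122000: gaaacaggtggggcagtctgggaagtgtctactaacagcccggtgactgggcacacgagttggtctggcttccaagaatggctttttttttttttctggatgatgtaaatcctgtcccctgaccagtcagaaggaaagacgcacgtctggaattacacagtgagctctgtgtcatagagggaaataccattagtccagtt
Kcnj8 region, chr6:142616802-142617001: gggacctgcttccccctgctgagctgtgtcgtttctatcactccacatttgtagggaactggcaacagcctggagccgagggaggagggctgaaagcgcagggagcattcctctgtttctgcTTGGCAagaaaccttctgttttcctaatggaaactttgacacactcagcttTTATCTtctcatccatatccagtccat
Smad6 region, chr9:63959208-63959407: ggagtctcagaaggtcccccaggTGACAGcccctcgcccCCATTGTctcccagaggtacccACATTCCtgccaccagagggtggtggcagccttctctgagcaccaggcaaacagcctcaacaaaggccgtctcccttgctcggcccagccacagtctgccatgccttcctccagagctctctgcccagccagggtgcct

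The Rnf144b window held a forkhead match (TGTTTAC) and a MEIS match (TGACAG), the Lgmn window matches for NKX2-5 (CACTTNA, where N is any base), NFI (TTGGCA) and CTCF (AGGGGGC), the Gsdme window an E-box (CATCTG) and an NFI match, and the Maml3 window a forkhead match. The Nppa window held 2 CATCTG E-boxes and a CTCF match, the Kcnj8 window a GATA match (AGATAA) and an NFI match, and the Smad6 window matches for TEAD (ACATTCC), SOX (ACAATGG) and MEIS. In the Cdh5 window none of the 20 motifs was found, which says only that these letters are not in this window. Such short words are common. On either strand, the windows of all merged regions held the MEIS word in 19.9%, the NFI word in 18.2%, CATCTG in 17.7%, the GATA word in 12.1%, the NKX2-5 word in 11.0%, the CTCF word in 5.34%, the TEAD word in 5.19%, the SOX word in 3.17% and the forkhead word in 2.83%. A match is a description of the letters and not evidence of binding.

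Peak numbers per library were 131500 (Input replicate 1), 75336 (Input replicate 2), 107216 and 108513 (Myc), and 83139 and 81487 (PCM1). The background pileup of tags recovered from the peak values put the depth of Input replicate 1 at 4.38 times that of PCM1 replicate 2, of the Myc replicates at 1.59 times for both, of Input replicate 2 at 1.13 times and of PCM1 replicate 1 at 1.08 times. By this measure all Input and Myc libraries were deeper than either PCM1 library, though Input replicate 2 was only 1.049 times as deep as PCM1 replicate 1. The measure assumes that tags were extended to the same length in every library. That length is not stated, so small differences in depth are uncertain. Absence from PCM1 means that no peak was called at the depth of the PCM1 libraries. With the strongest 75336 peaks of every library, 1887 of 50622 four-library regions (3.73%) were absent from PCM1, and 1576 of the 1887 lay at members. As the mirror of the rule, 456 of the 51096 regions of both Input and both PCM1 libraries (0.892%) were absent from both Myc libraries. At equal numbers of peaks the mirror count was 1248 (2.59%), so the gap between the 2 shares narrowed from 6.36% against 0.892% to 3.73% against 2.59%. Without Input replicate 2 there were 11374 members, without PCM1 replicate 1 there were 7780 and without PCM1 replicate 2 there were 7636. At the markers, a peak lay within 1 kb of the gene start for 12 to 14 of 16 cardiomyocyte genes, 12 to 14 of 16 endothelial and endocardial genes and 15 or 16 of 16 smooth muscle and pericyte genes in every library, for 10 and 11 of 16 fibroblast genes in PCM1 against 12 to 15 in Input and Myc, and for 3 and 4 of 16 immune genes in PCM1 against 4 to 8. For epicardial genes the counts were 10 and 11 in PCM1 against 9 to 14, and for neural crest and glia genes 7 and 8 in PCM1 against 6 or 7.

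Members were of middle to low rank in the libraries that had them. Peaks were ranked within their own list by the authors' -log10 q-value, with 100 for the strongest. The members had a median percentile of 48.6 in Input replicate 1, of 27.8 in Input replicate 2, and of 43.2 and 43.1 in Myc. Regions of all 6 libraries had medians of 81.2, 66.7, 76.2 and 76.6 in the same order. The highest percentile any member reached was 87.9 in Input replicate 1, 79.5 in Input replicate 2, and 90.4 and 88.0 in Myc. The medians of the fold enrichment over local background were 5.65, 5.43, 5.90 and 6.05 for the members and 11.1, 8.97, 10 and 10.2 for regions of all 6 libraries, and the median summit pileups of the members were 36, 12, 18 and 18 tags. The regions of Input and PCM1 absent from Myc ranked no higher, with medians of 46.4 and 22.8 for the Input libraries and 34.5 and 31.6 for those of PCM1.

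**Figure D1:**
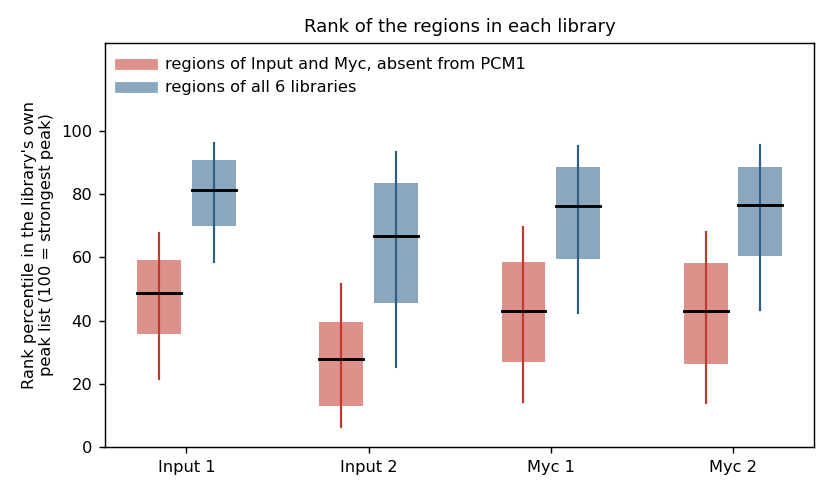
Rank percentile of regions within each Input and Myc peak list (vertical axis, 100 is the strongest peak) for the 3841 regions of Input and Myc absent from PCM1 (red) and the 48861 regions of all 6 libraries (blue). Black lines are medians, boxes the quartiles and thin lines the 10th to 90th percentile of regions; in every library the red median, 27.8 to 48.6, lies below the blue median, 66.7 to 81.2.

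The share of regions without a PCM1 peak went down with each step in rank. Each four-library region was placed by the lowest of its 4 percentiles, called its weakest percentile. In the lowest 10 points of that scale 1032 of 4473 regions (23.1%) were absent from PCM1, between 40 and 50 the share was 5.31%, between 60 and 70 it was 49 of 6438 (0.761%), between 70 and 80 it was 10 of 6507 (0.154%), and none of the 6872 regions between 80 and 90 or of the 6755 above 90 was absent. Below the 50th percentile, 3627 of 27609 regions (13.1%) were absent, and these were 3627 of the 3841 members. The weakest library was Input replicate 2 for 2260 members (58.8%). Height was compared as the summit pileup over the genome-wide background. The lowest summits called over the genome-wide background stood 5.12 and 5.54 times above it in the 2 PCM1 libraries, and 3439 members (89.5%) exceeded 5.54 times the background in all 4 Input and Myc libraries. Above 1.5 times that height in all 4 libraries there were 1972 members. The rule required a called peak in each of these libraries, so part of these counts follows from it. The lowest peaks called over the same background stood at 2.78 times in Input replicate 1 and at 4.165 and 4.179 times in Myc. In Input replicate 2 they stood at 5.86 times, so that library could not fall below the limit. Local background can be higher than the genome-wide one, so a height above the limit does not show that a peak could be called in PCM1.

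**Figure D2:**
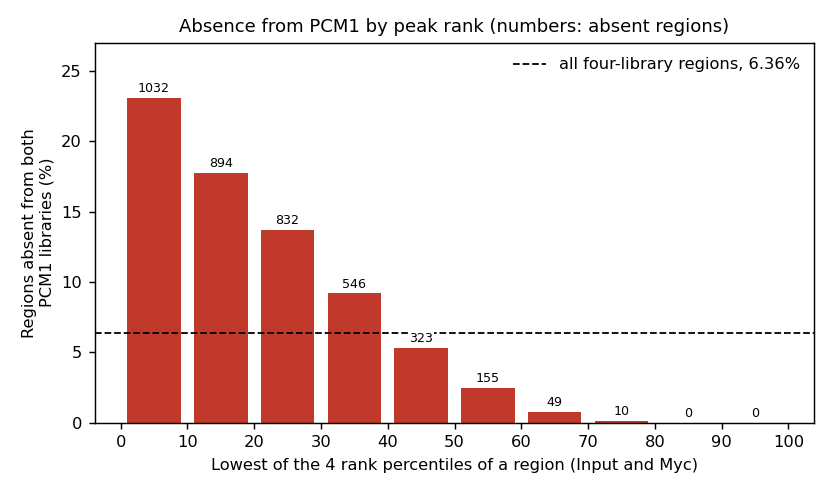
Share of four-library regions that were absent from both PCM1 libraries (vertical axis, percent) by the lowest of their 4 rank percentiles in Input and Myc (horizontal axis, bins of 10). Numbers above the bars are absent regions; the share goes from 23.1% in the lowest bin to 0 in the highest, and the dashed line marks the 6.36% of all four-library regions.

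At the edge of the rule, the members with the lowest called peak were a Dlgap2 intron at chr8:14132744-14133076 and a region near the Qsox1 start at chr1:155795688-155796155, each with a -log10 q of 1.36 in Myc replicate 1, from 6 and 8 tags. Just outside, regions at Shisa9 (chr16:11984018-11984760) and upstream of Adgrb1 (chr15:74319966-74320480) were left out for a PCM1 replicate 2 peak with a -log10 q of 1.38, from 5 tags each. The members stood apart from PCM1 peaks by a median of 5083 bp, but 289 (7.52%) had one within 500 bp and the smallest gap was 1 bp. Without those 289, 3552 regions were left. The members were short, with a median length of 418 bp (213 to 1413) against 658 bp for regions of all 6 libraries, and in 3422 (89.1%) the summits of the 4 libraries fell within 200 bp of each other.

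Promoters held a smaller share of the members than of the regions of all 6 libraries, and distal sequence a larger one, as a description without a test. A promoter here reaches 3 kb to either side of any annotated start site. Of the members, 861 (22.4%) lay at promoters, 1441 (37.5%) in introns, 1319 (34.3%) in distal intergenic sequence, 112 (2.92%) in exons and 108 (2.81%) just downstream of genes. Of the regions of all 6 libraries 42.3% lay at promoters and 21.7% were distal. The regions of Input and PCM1 absent from Myc held 26.5% at promoters, 48.0% in introns and 18.2% in distal sequence, so the members' share of distal sequence lay above both classes, and their share of introns lay between them. Within 1 kb of a protein-coding start there were 181 members (4.71%), 22.6% of the regions of all 6 libraries and 2.19% of the mirror class. The median distance to such a start was 40231 bp for members, 21119 bp for regions of all 6 libraries and 32463 bp for the mirror class. All merged regions lay nearer to the members than regions of all 6 libraries did. They held 27.1% at promoters, 39.5% in introns and 27.5% in distal sequence, with a median distance of 35606 bp. Counted the other way, absence from PCM1 went from 3.68% of four-library promoter regions to 7.33% of intronic and 9.23% of distal regions. Within bins of rank the positions lay closer together. In the lowest 10 points of the weakest percentile, 20.6% of promoter regions and 23.8% of other regions were absent, and between 20 and 30 these shares were 11.9% and 14.3%. Between 40 and 50 the order was the other way, 5.87% against 5.07%, and again between 70 and 80 on 5 regions each. At equal numbers of peaks promoters held 25.2% of the 1887 regions.

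**Figure D3:**
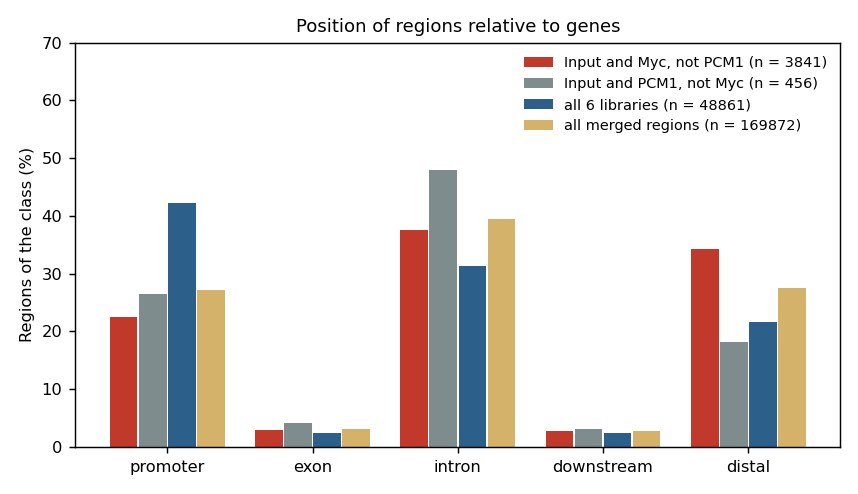
Share of regions (vertical axis, percent of the class) at promoters, exons, introns, sequence downstream of genes and distal sequence for the 3841 regions of Input and Myc absent from PCM1, the 456 regions of Input and PCM1 absent from Myc, the 48861 regions of all 6 libraries and all 169872 merged regions. The members have the lowest bar at promoters, 22.4%, and the highest bar for distal sequence, 34.3%.

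The 12 members with the highest weakest percentile were spread over the genome, 5 of them at promoters and 7 elsewhere. The strongest, chr13:47152375-47152704, lay inside Rnf144b, a ubiquitin ligase gene, 29884 bp downstream of its start and 2468 bp from the start of the noncoding gene Gm48581. Its percentiles were 83.9 and 79.5 in Input and 84.0 and 80.7 in Myc, with folds of 12.2, 14.8, 12.5 and 11.5 and pileups of 127, 38, 63 and 54 tags. The nearest PCM1 peak was 3545 bp away. All 4 libraries ranked it far above the median of the members, and the values of replicates and groups overlapped.

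A member in an intron of Rin3, whose nearest protein-coding start is that of Lgmn, the lysosomal protease legumain, lay at chr12:102387252-102387592 and had percentiles of 87.9 and 77.0 in Input and 84.6 and 84.9 in Myc. A member in an exon of Osbpl3 at chr6:50294089-50294515, 30440 bp upstream of Gsdme, a gasdermin of lytic cell death, had 78.4 and 76.3 in Input and 79.3 and 84.4 in Myc. The member at the start of Maml3, a coactivator of Notch signaling, lay 90 bp from the start at chr3:52104752-52105219 and had percentiles of 84.3, 75.8, 84.2 and 87.5. Its pileups, 283, 79, 122 and 148 tags, were high, while its folds, 4.73, 5.20, 5.63 and 5.96, were near the median of all members, since its local background was high as well. A PCM1 peak lay 1536 bp from it.

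The other 8 lay near Ctcfl, Lrrc31, Adamtsl1, Celsr3, Ino80b, 4930550C14Rik, Tns3 and Lmod3, with weakest percentiles between 68.9 and 72.9. Of these, the regions at Celsr3, a cadherin of planar cell polarity, at Ino80b, a subunit of the INO80 chromatin remodeler, and at 4930550C14Rik were at promoters. The Lrrc31 and Adamtsl1 introns and the 4930550C14Rik promoter had no PCM1 peak within 20116 bp, and the Lrrc31 region had none within 44511 bp. Folds at Adamtsl1, a secreted matrix protein, were 13.9 and 12.7 in Input and 15.91 and 15.04 in Myc, and at Tns3, a focal adhesion protein, 12.4 and 11.8 in Input and 16.5 and 16.1 in Myc. At both, the 2 Myc folds lay above the 2 Input folds, a difference that was not tested.

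**Figure D4:**
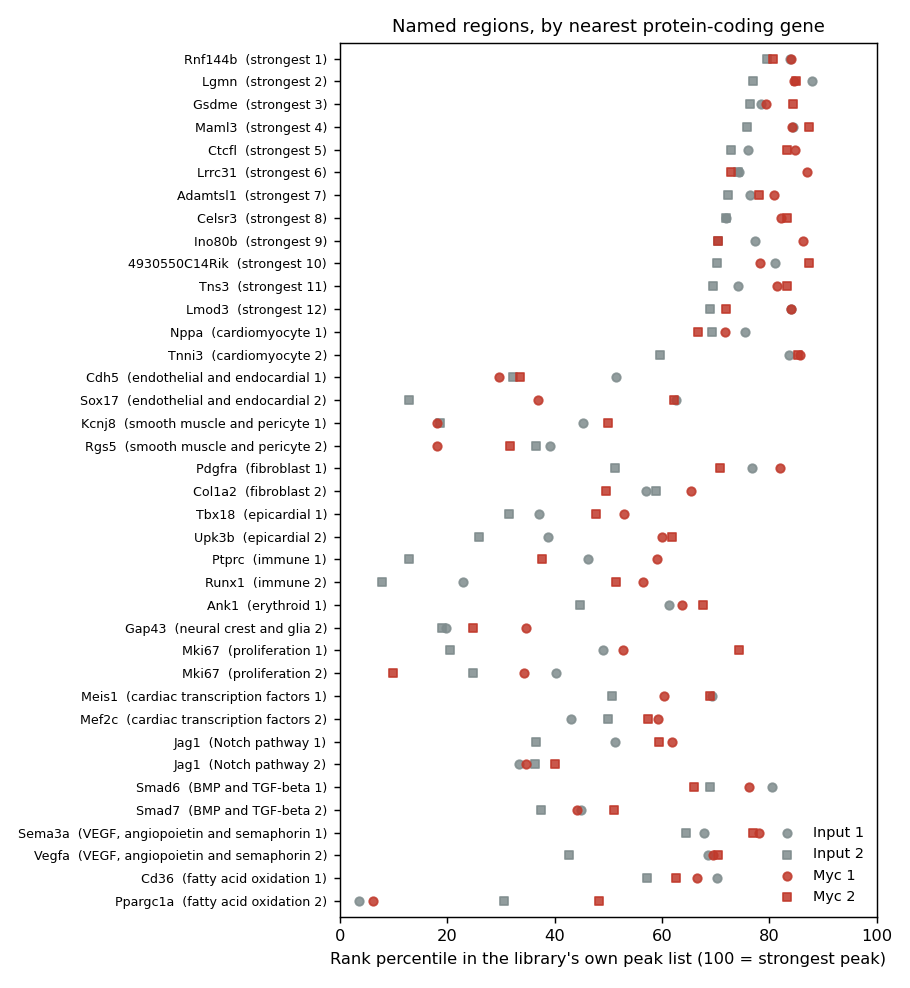
Rank percentile of the named members (horizontal axis, 100 is the strongest peak of that library) in Input (grey) and Myc (red), replicate 1 as circles and replicate 2 as squares, one row per region labelled with the nearest protein-coding gene and the reason it was named. The 12 strongest members sit between 68.9 and 87.9 in every library, and most marker gene regions sit lower, with Input replicate 2 (grey squares) often lowest.

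Regions were then assigned to the nearest protein-coding start and read by lists of 16 genes. At least 1 member was nearest to 3066 of 21938 protein-coding genes (14.0%), 599 genes had 2 or more and 34 had 4 or more. In the lists below, the share of a list's four-library regions that were members is read against 6.36%, and for regions under the 50th weakest percentile against 13.1%. No list was tested, neighboring regions of a gene are not independent, and the order of the lists describes these libraries. The 9 alternative settings cited for the lists reuse the same peaks and are not independent checks. With 1 library left out they kept 99.35% or more of the members, and with equal numbers of peaks 41.03%.

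Fibroblast genes had the highest share of the 14 lists with all deposited peaks, though not under every setting. Of 112 four-library regions nearest to the 16 genes, 15 (13.4%) were absent from PCM1, and 9 of the genes had such a region. Under the 50th percentile the share was 14 of 66 (21.2%). Fn1, which encodes fibronectin, had 3 of its 8 four-library regions among the members, while Pdgfra (7), a receptor of platelet-derived growth factor, Postn (10), which encodes the matrix protein periostin, Col5a1 (15), a fibrillar collagen, and Thbs2 (14), a thrombospondin, had 2 each, and Col1a2, Col3a1, Tcf21 and Dcn 1 each. The leading member lay 8995 bp upstream of Pdgfra, at chr5:75143034-75143560, in the noncoding gene Gm19583. Its percentiles were 76.8 and 51.3 in Input and 82.1 and 70.8 in Myc, and its pileups were 78, 17, 49 and 33 tags. Next came a region 16318 bp upstream of Col1a2, a chain of type I collagen, at chr6:4488289-4488703, with percentiles of 57.1, 59.0, 65.4 and 49.5, but with a PCM1 peak 241 bp away. A region 7643 bp upstream of Postn ranked at 43.6 and 65.5 in Input and 70.7 and 81.1 in Myc. A region 42046 bp downstream of the start of Tcf21, a transcription factor of the fibroblast lineage, ranked at 55.4 and 46.4 in Input and 45.9 and 30.4 in Myc. The share of the fibroblast list lay above that of all regions under each of 9 alternative settings, with a range from 6.67% to 26.04%, and at equal numbers of peaks it was 6 of 90 regions (6.67%) against 3.73%, below the 7.44% of the VEGF list. Without PCM1 replicate 1 the fibroblast share was 20.5% and the erythroid share, of 22 regions, 27.3%. Limited to regions inside a gene or within 10 kb of it, 5 of 64 fibroblast regions (7.81%) were members, against 5.49% for all protein-coding genes, 10.5% for the VEGF list and 11.5% for the epicardial list.

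Genes of vascular growth and guidance came next to them among the larger lists. For the VEGF, angiopoietin and semaphorin list, 17 of 152 four-library regions (11.2%) were members, at 9 of 16 genes, and 16 of 87 (18.4%) under the 50th percentile. Among the ligands, a member lay 485 bp upstream of Vegfa, the vascular endothelial growth factor, at chr17:46032691-46033017. It ranked at 68.6 and 42.7 in Input and 69.4 and 70.5 in Myc, with pileups of 182, 45, 85 and 87 tags. A PCM1 peak lay 94 bp from it, so its absence from PCM1 holds for this interval only. A member in an intron of Sema3a, a secreted guidance cue, at chr5:13405460-13405798, 280215 bp downstream of the start of the gene and 6052 bp from a later start, had percentiles of 67.8 and 64.5 in Input and 78.0 and 77.0 in Myc, and its nearest PCM1 peak was 5810 bp away. Angpt1, an angiopoietin that activates the receptor Tek, and Apln, the ligand apelin, had 2 members each, and Efnb2, the arterial ligand ephrin-B2, had 3 of 22, with weakest percentiles of at most 7.55. Among the receptors, Nrp1 and Nrp2, the neuropilins that bind both VEGF and semaphorins, had 2 members each. The stronger at Nrp2, 6138 bp upstream, ranked at 60.7 and 41.8 in Input and 55.8 and 72.0 in Myc, and the stronger at Nrp1, over an exon 4822 bp downstream of the start, at 59.1, 37.0, 66.3 and 52.2. S1pr1, the receptor of sphingosine 1-phosphate, had 3 of 19, and Flt4, the VEGF receptor of lymphatic endothelium, had 1 of 3. This list too lay above all regions under 9 of 9 settings, which reuse the same peaks, from 7.44% to 21.1%. Within 10 kb of its genes the share was 8 of 76 (10.5%) against 5.49%.

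Epicardial genes had a like share on few regions. Of 42 four-library regions 5 (11.9%) were members, at Tbx18 (2), Upk3b, Aldh1a1 and Aldh1a2, the last of which makes retinoic acid. Under the 50th percentile the share was 5 of 19 (26.3%), the highest of the 14 lists. The leading member, in an intron of Tbx18, a T-box factor of the epicardium, at chr9:87708195-87708497, had percentiles of 37.0 and 31.5 in Input and 52.9 and 47.7 in Myc. The region at Upk3b, a uroplakin of the mesothelium, covered an exon at chr5:136046014-136046301 and ranked at 38.8 and 25.9 in Input and 59.9 and 61.9 in Myc. Both regions, and that of Aldh1a1, had higher percentiles in the 2 Myc libraries than in the 2 Input libraries, a difference that was not tested. The same order was seen in other lists, as at Sema3a. It did not hold at the second Tbx18 region, with 55.36 and 3.31 in Input and 30.05 and 46.01 in Myc. Nor did it at Aldh1a2, with 46.62 and 17.1 in Input and 22.85 and 35.57 in Myc. At equal numbers of peaks 1 of 34 epicardial regions was left (2.94%), below the 3.73% of all regions.

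Cardiomyocyte genes stood below the share of all regions but were not without members. Of 131 four-library regions 5 (3.82%) were members, near Nppa, Tnni3, Nkx2-5, Tbx5 and Ryr2. The list ranked above all four-library regions, with a median weakest percentile of 59.6 against 54.3. Under the 50th percentile its share was 3 of 50 (6%), against 13.1%. The region named for Nppa, which encodes atrial natriuretic factor, lay in an intron of Clcn6, 7854 bp downstream of the Nppa start, at chr4:148008420-148008732. It ranked at 75.4 and 69.3 in Input and 71.7 and 66.8 in Myc with folds of 8.39, 9.43, 8.30 and 8.50, and the nearest PCM1 peak was 2562 bp away. The region 2320 bp upstream of Tnni3, the cardiac troponin I gene, at chr7:4526342-4526756, lay 13 bp from the start of Gm15873 in Dnaaf3, with percentiles of 83.6 and 59.6 in Input and 85.7 and 85.4 in Myc. Near Ryr2, the calcium release channel of the sarcoplasmic reticulum, 1 of 20 regions was a member, of weakest percentile 3.19. The cardiac transcription factor list was close to the background, with 14 of 211 (6.64%), of which 5 were at Mef2c and 2 each at Tbx20 and Prox1. Its leading regions were introns of Meis1, a homeobox factor, with percentiles of 69.4 and 50.7 in Input and 60.4 and 69.0 in Myc, and of Mef2c, with 43.1 and 49.9 in Input and 59.3 and 57.4 in Myc and a PCM1 peak 170 bp away. Fatty acid oxidation genes, whose products feed the cardiomyocyte with energy, had 2 of 105 (1.90%), near Cd36, the fatty acid transporter, and Ppargc1a, a regulator of mitochondrial genes. Their regions ranked high, with a median weakest percentile of 68.7, and under the 50th percentile the share was 1 of 31 (3.23%). The Cd36 region, 5116 bp upstream at chr5:17893681-17894153, ranked at 70.3 and 57.1 in Input and 66.5 and 62.7 in Myc, whereas the Ppargc1a region ranked at 3.54 in Input replicate 1.

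Endothelial and endocardial genes had 3 of 125 four-library regions among the members (2.40%), and 4.84% under the 50th percentile. They lay in introns of Cdh5, the cadherin of endothelial junctions, and Pecam1, a surface protein of endothelial cells, and 105192 bp upstream of Sox17, a factor of arterial endothelium. The Cdh5 region, chr8:104121660-104122297, was of low rank, at 51.4 and 32.2 in Input and 29.7 and 33.6 in Myc, with pileups of 37, 13, 15 and 18 tags. The Sox17 region ranked at 62.6 in Input replicate 1 and 12.9 in Input replicate 2, and no pair of the 4 libraries lay farther apart than these replicates. The other 13 genes of the list had no member. The list lay below all regions under 9 of 9 settings, which reuse the same peaks, as did the cardiomyocyte, proliferation and fatty acid oxidation lists. Without Input replicate 2, however, its share was 23 of 164 (14.0%), against 14.4% for all regions.

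For smooth muscle and pericyte genes the share was 6 of 80 (7.50%), and at equal numbers of peaks 1 of 67 (1.49%), below the 3.73% of all regions. It was also below all regions without Input replicate 2 (12.5% against 14.4%) and without Myc replicate 1 (7.32% against 7.70%). Kcnj8, a potassium channel of pericytes, and Rgs5, a pericyte regulator of G proteins, had 2 members each. The leading region, 45276 bp upstream of Kcnj8 in its neighbor Abcc9 at chr6:142616702-142617077, ranked at 45.3 and 18.7 in Input and 18.1 and 50.01 in Myc. A region 49 bp upstream of the Rgs5 start ranked at 49.7 and 5.37 in Input and 39.3 and 48.7 in Myc, but with a PCM1 peak 102 bp away. Both replicate pairs for Kcnj8 disagreed by more than the groups did.

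In the signaling lists, Notch genes had 8 of 122 (6.56%), with 3 at the ligand Jag1, 1 at the receptor Notch1 and 4 at the targets Hes1 (2), Hey1 and Hey2. The leading region lay 546741 bp upstream of Jag1, at chr2:137663053-137663716, 50 bp from the start of the noncoding gene Gm14064, and ranked at 51.3 and 36.6 in Input and 61.8 and 59.4 in Myc. BMP and TGF-beta genes had 8 of 185 (4.32%). Of these, 3 were at Smad6 and 1 at Smad7, the inhibitors of the pathway, 2 at the receptor Tgfbr2, and 1 each at the ligands Bmp10 and Tgfb2. The Smad6 region in its own intron at chr9:63959142-63959482 was the strongest of the signaling lists in its weakest library. It ranked at 80.6 and 68.9 in Input and 76.3 and 66.0 in Myc with pileups of 161, 46, 70 and 53 tags, and a PCM1 peak lay 271 bp away. The Smad7 region, in an intron of Ctif, ranked between 37.4 and 51.1.

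The remaining lists were small. Immune genes had 3 of 48 (6.25%), at Ptprc, the leukocyte antigen CD45, and Runx1 (2), a blood stem cell factor, with weakest percentiles of at most 12.9. The leading Runx1 region was 10 bp from a PCM1 peak and the other 462 bp. With no PCM1 peak allowed within 500 bp, the immune share was 1 of 48 (2.08%), against 5.88% of all regions. Neural crest and glia genes had 4 of 64 (6.25%), erythroid genes 1 of 22 (4.55%) and proliferation genes 2 of 64 (3.13%), both near Mki67 at distances of 132147 and 436272 bp. The erythroid region, assigned to Ank1, lay in an intron of Kat6a.

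**Figure D5:**
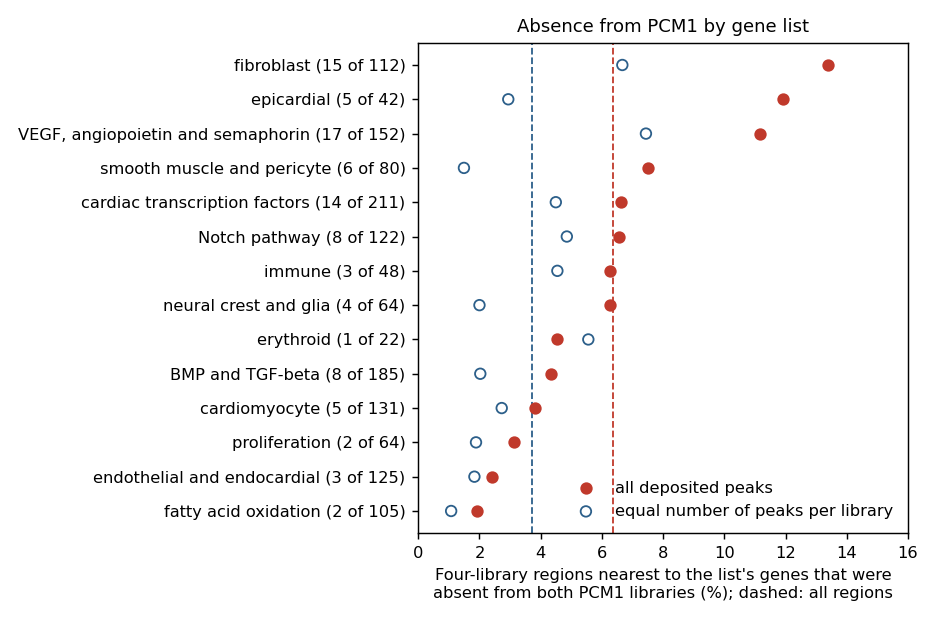
Share of four-library regions nearest to the genes of each list that were absent from both PCM1 libraries (horizontal axis, percent), with all deposited peaks (filled) and with the strongest 75336 peaks of each library (open); counts of members are beside the names and dashed lines mark all regions, 6.36% and 3.73%. The fibroblast list (13.4% and 6.67%) and the VEGF, angiopoietin and semaphorin list (11.2% and 7.44%) lie above both lines, as do, by less, the Notch and cardiac transcription factor lists; the epicardial and smooth muscle lists cross from above to below, and the immune and erythroid lists from below to above.

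Some genes were nearest to several members, and those below were picked for the highest counts among 21938 protein-coding genes. The share of their four-library regions that were members ran from 12.82% (Trib2) to 50% (Lrrc3b), beside 6.36% of all four-library regions. Klf6, a zinc finger factor, was nearest to 8 members of 30 four-library regions, between 9151 and 584668 bp from its start and of weakest percentile 11.2 to 40.6. Flrt2, a membrane protein of cell guidance, had 6 of 18, and Ttll7, a tubulin modifying enzyme, had 6 of 18. At 5 members, tied, were Efna5 (of 29), an ephrin ligand, Igfbp7 (15), a secreted binding protein of insulin-like growth factors, Lrrc3b (10), Map3k7 (18), the kinase TAK1 of TGF-beta signaling, Mbnl2 (18), a splicing factor, Mef2c (21), Pde4d (20), a phosphodiesterase that degrades cyclic AMP, and Trib2 (39), a pseudokinase. At Lrrc3b, 5 of 10 regions were members and the other 5 were present in all 6 libraries. Regions at any distance count here, and the farthest Flrt2 member was 1625407 bp from the start of the gene. Of the 3841 members, 174 had another within 10 kb, so most had no such neighbor. The same count was not made for other classes. By chromosome, the share of four-library regions absent from PCM1 ran from 5.16% to 8.08% over the autosomes and was 86 of 1079 (7.97%) on X.

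Sequence under the members differed from that under regions of all 6 libraries most at promoters. In the 200 bp around the summits the median GC content was 49.0% for members and 54.5% for regions of all 6 libraries, with a mean of 3.78 and 7.33 CpG dinucleotides. Away from promoters the medians were 48.5% and 51.5%, and the mirror class had 52.5%. All merged regions had a median GC content of 50.5% and a mean of 4.285 CpG dinucleotides, nearer to the members. Windows with at least 50% repeat sequence made up 3.098% of members, 1.23% of regions of all 6 libraries and 3.839% of all merged regions. The SP word (GGGCGG) was found in 7.89% of members, 23.5% of regions of all 6 libraries and 11.13% of all merged regions. Away from promoters these shares were 4.597%, 7.794% and 5.328%.

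Words of muscle and cardiac factors were compared away from promoters only. The MEF2 word (AAAATAG) was in 5.03% of members, 6.96% of regions of all 6 libraries and 4.48% of the mirror class, the E-box CAGCTG in 19.3%, 23.7% and 20.6%, MEIS in 18.8%, 23.5% and 28.1%, and a nuclear receptor word (AAGGTCA) in 4.597%, 6.365% and 7.16%. NFI was in 19.6%, 22.6% and 20.3%, and the E-box CATCTG, higher in the members, in 20.8%, 18.5% and 14.9%. GATA (12.9% and 13.7%), SOX (4.03% and 3.34%), NKX2-5 (12.3% and 11.9%), TEAD (5.87% and 6.08%), AP-1 (TGANTCA, 9.70% and 9.59%) and ETS (AGGAAGT, 8.93% and 8.06%) lay within 1 percentage point of each other in members and regions of all 6 libraries. All merged regions away from promoters, which include the weak peaks of single libraries, held MEF2 in 5.45%, CAGCTG in 20.3%, MEIS in 21.2% and CATCTG in 19.2%. They held NFI in 19.82% and the nuclear receptor word in 5.996%. For each of these words the members lay closer to all merged regions than to regions of all 6 libraries. Peak rank and GC content were both lower in the members, and their part in these shares was not tested. Away from promoters and under the 50th weakest percentile, 11.35% of four-library regions with the MEF2 word were absent from PCM1, against 13.89% without it. The same pair of shares was 12.01% and 14.22% for MEIS, 12.16% and 14.19% for CAGCTG, and 14.65% and 13.52% for CATCTG.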

How the data were processed

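Omni-ATAC libraries of 6 samples (Input, Myc and PCM1, 2 biological replicates each) were analysed as the peak lists the authors deposited. Per the study's methods and the submitters' processing notes, the authors trimmed the reads, mapped them to mm10 with Bowtie2 2.3.3.1, marked duplicates with Picard 2.2.1, removed blacklisted regions with bedtools, shifted alignments for the transposase, and called peaks per library with MACS2 2.1.0.20160309 at a q-value of 0.05. The deposited lists hold intervals and summit offsets, the authors' fold enrichment, their -log10 p-value and -log10 q-value, and the authors' score, which is the -log10 q-value times 10 cut to a whole number. The score was not used further. Counts of reads were not used here.

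Intervals were merged with bedtools 2.31.1, and a library was present in a merged region where a peak overlapped it by at least 1 bp. Pileup and background were solved from fold and p-value, assuming a Poisson background. Regions were assigned by their centre to GENCODE M21 (21938 protein-coding genes), and sequence came from the RefSeq GRCm38.p6 assembly, whose primary chromosomes are those of mm10. The script was tested on simulated peaks. Members, lists and tests were chosen with earlier results of these data known. All comparisons are descriptions without a test. Regions named were the 12 with the highest weakest percentile, up to 2 per list, and the genes nearest to the most members (8, with ties kept, which gave 11). A region that this rule names is not reported here. Alternatives were equal numbers of peaks, a q-value of 0.01, a distance of 500 bp from PCM1 peaks, leaving out each library, and other promoter, window, ranking and gene assignment rules.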

Additional observations from a re-analysis of the deposited data

How the results depend on the processing

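The number of members moved most with the libraries. It was 1887 with equal numbers of peaks and 4116 to 11374 with 1 library left out, highest without Input replicate 2. As a share of four-library regions it was 3.73% with equal numbers, 5.88% where no PCM1 peak could lie within 500 bp, and 6.76% to 14.4% with 1 library left out. Leaving out a library relaxes the rule, and equal numbers drop peaks from 5 of 6 lists, by construction. Promoters held 25.2% with equal numbers, 12.8% with promoters of 1 kb, and 21.2% to 24.1% with 1 library left out. The median distance to a start was 33669 bp with equal numbers and 38688 to 43588 bp with 1 library left out. The cardiomyocyte share ranged from 3.82% to 10.7% and the endothelial share from 2.34% to 14.0% with 1 library left out. Median GC was 47.0% in windows of 400 bp, and the median weakest percentile was 21.2 by fold enrichment against 19.5 by q-value. A q-value of 0.01 gave 3856 regions. Requiring a summit inside the region, and merging the 4 Input and Myc libraries alone (added after seeing the data), gave 3841 again, by construction. No paired analysis was possible because the results come from no test and the replicate numbers of the groups are not tied to shared hearts. Peak lists hold no reads at absent sites, so a weak PCM1 signal below the calling threshold could not be measured. The part of depth in absence at low ranks was not tested.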
